A study of Mus musculus with 6 samples.

Results

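The genes described here are Igf2bp1, Igf2bp2, Igf2bp3, Lin28a, Lin28b, Hmga1 and Hmga2, which are often grouped as oncofetal genes. They are 7 of the 21485 genes shared by the 6 count matrices. The list was chosen by name with results of these matrices in view, and the measured values that prompted it were the levels of Igf2bp1 and Igf2bp3, which led 1 young population. The levels of Igf2bp1 and Igf2bp3 across populations are therefore given as a description, with no test. All 7 genes were found in all 6 matrices, and 6 of them passed the filter on low counts for the comparison of old with young populations. Lin28a did not pass.

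The cells were muscle-derived stem/progenitor cells (MDSPCs) of the mouse, the late-adhering fraction obtained when dissociated skeletal muscle is replated repeatedly on collagen. Young mice gave 3 populations (young replicates 1 to 3) and old mice gave 3 (old replicates 1 to 3), and all 6 were grown in proliferation medium with fetal bovine serum, horse serum and chick embryo extract and profiled by droplet 3′ single-cell RNA sequencing. The labels give neither ages, sex, strain, passage number nor whether a population came from 1 mouse or several. Each population is 1 sample, so a value in 1 population has no replicate of its own.

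IGF2BP proteins bind messenger RNAs in the cytoplasm and affect their stability, transport and translation, and their genes are active in the embryo and in many tumours. LIN28A and LIN28B bind precursors of the let-7 microRNAs and block their maturation, and let-7 in turn silences Lin28, Igf2bp and Hmga2 messages through sites in their 3′ untranslated regions (UTRs). HMGA1 and HMGA2 are small proteins that bind AT-rich DNA in chromatin. In skeletal muscle, Hmga2 acts upstream of Igf2bp2 in the growth of myoblasts.

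The let-7 sequences are shown because these genes are linked through them. In the RefSeq table of mature miRNAs (GRCm38.p6), 12 loci with 10 mature names carried the seed GAGGUAG at bases 2 to 8, and mmu-let-7j carried GAGGUAU instead. Capitals mark the seed in each mature sequence, written 5′ to 3′.
mmu-let-7a-5p: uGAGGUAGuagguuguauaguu
mmu-let-7g-5p: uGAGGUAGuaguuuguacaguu
mmu-miR-98-5p: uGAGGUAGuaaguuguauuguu
mmu-let-7j: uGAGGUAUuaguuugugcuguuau

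The match to the GAGGUAG seed is CTACCTC. It was searched on the transcript strand of annotated 3′ UTRs (GENCODE, GRCm38), taking 1 transcript a gene. All 7 genes held at least 1 match. Hmga2, Igf2bp1 and Lin28b held 4 each, Lin28a held 2, and Igf2bp2, Igf2bp3 and Hmga1 held 1 each. Over all 21039 genes with a 3′ UTR, 9.02% held at least 1 match and 0.152% held 3 or more. Long UTRs hold more matches, and 14.6% of the genes with UTRs of 1000 to 8000 bases held 1, a length range that includes all 7 genes. A match is a description of the letters and not a shown binding site. The first match of each gene is printed here with its flanks. Capitals mark the match, with the following A where it is present. All lie in 3′ UTR exons on GRCm38, on the minus strand for all but Hmga1.
Igf2bp1 (chr11:95961777-95961799): ctgtgcgaagtaaaCTACCTCAa
Igf2bp2 (chr16:22059472-22059494): cacacaaataaaagCTACCTCAg
Igf2bp3 (chr6:49086786-49086808): gcatttttactcaaCTACCTCAg
Lin28a (chr4:134005188-134005210): cacagcctgttgaaCTACCTCAt
Lin28b (chr10:45381021-45381043): cccgggcgggaagtCTACCTCAt
Hmga1 (chr17:27563278-27563300): cctctgttcacaaaCTACCTCtg
Hmga2 (chr10:120364223-120364245): ccgacattcaatttCTACCTCAg
Hmga1 is the gene whose only match lacks the following A. Igf2bp1 has that A in 3 of its 4 matches. Mature let-7 itself is not captured by this assay, so its level was not measured.

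In all, 61673 of 62849 barcodes were kept as cells, 8674 to 12541 per population, with median totals of 13001 to 19951 unique molecular identifiers (UMIs) per cell. A UMI tags 1 captured RNA molecule. The matrices held 133974782 to 196481316 UMIs per population. Young replicate 1 and old replicate 1 were counted on a shorter gene list than the other 4. Pairs of libraries shared 24 to 41 cell barcodes, at most 0.37% of the smaller library. The Y-linked gene Eif2s3y had 2699 UMIs in old replicate 1 and 0 in each of the other 5 populations, which sets old replicate 1 apart in the old group. The summed level of the myogenic marker list spanned 431 to 2323 CPM (UMIs of a gene per 1000000 UMIs of the population) in young and 364 to 3584 CPM in old populations. The 10 markers of that list were uneven: in young replicate 3, Pax7, the transcription factor of muscle stem cells, and Des, the muscle intermediate filament, were at 0.0265 and 2.69 CPM, the lowest of the 6 populations, while Vcam1 and Megf10 were at 98.2 and 141 CPM, the highest. The fibro-adipogenic list summed to 258 to 434 CPM in young and 206 to 348 CPM in old populations, mostly from Gsn, with Pdgfra at or under 1.97 CPM and Lum at 0 in 5 of 6. The smooth muscle and pericyte list reached 71.7 CPM and the endothelial list 59.4 CPM, both in young replicate 2, the latter almost all from Tek, and immune markers stayed at or under 8.20 CPM. The pluripotent and germ cell list reached at most 0.842 CPM.

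Igf2bp1 (chr11:95957163-96005940, minus strand) was high in young replicate 3 and near 0 in 4 of the other 5 populations. Its level was 0.269, 0.0207 and 57.7 CPM in young replicates 1, 2 and 3, from 36, 4 and 10898 UMIs. In old replicates 1, 2 and 3 it was 3.27, 0.580 and 0.153 CPM, from 495, 103 and 28 UMIs. Young replicate 3 held 93.1% of the CPM summed over the 6 populations and stood 17.6-fold above old replicate 1, the next in order. The closest neighbours in that order, young replicate 1 over old replicate 3, had a ratio of 1.76 on 36 and 28 UMIs, with an exact 95% interval of 1.04 to 2.99 that covers counting error only. The high value belonged to 1 population and not to the young group, since young replicates 1 and 2 lay below old replicates 1 and 2. Of the 10 myogenic markers, young replicate 3 had the lowest level of 5 and the highest of 2, and their part in the result was not tested.

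Igf2bp3 (chr6:49085223-49214957, minus strand) was also highest in young replicate 3, but it was more widely present. The young populations had 0.599, 10.4 and 97.0 CPM, and the old populations had 7.04, 17.0 and 2.71 CPM. Young replicate 3 was 5.71-fold above old replicate 2, the next in order, and held 72.0% of the summed CPM. The closest neighbours in the order, young replicate 2 over old replicate 1, had a ratio of 1.48 (1.38 to 1.60). Young replicate 2 and old replicate 2 both had Igf2bp3 at 10 CPM or more with Igf2bp1 under 1 CPM, so the pair did not rise together in those populations. Old replicate 1, second in order for Igf2bp1 at 3.27 CPM, had Igf2bp3 at 7.04 CPM.

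Igf2bp2 (chr16:22059009-22163299, minus strand), the family member that adult tissues keep, varied far less. Its levels were 34.2, 52.1 and 73.3 CPM in young and 47.8, 26.7 and 24.0 CPM in old populations, a 3.05-fold range. Young replicate 3 was again the highest, 1.41-fold above young replicate 2, and the groups overlapped. The makeup of the family differed accordingly. In young replicate 3, 25.3% of Igf2bp UMIs came from Igf2bp1, 32.1% from Igf2bp2 and 42.6% from Igf2bp3. In the other 5 populations Igf2bp2 gave 60.3% to 97.5% of them. These shares are of 3′ UMIs, 1 per captured molecule, with no scaling for length.

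Lin28a (chr4:134003330-134018841, minus strand) was at the limit of detection. It had 0, 0 and 5 UMIs in young and 4, 1 and 6 in old populations, 16 in all. The count of 0 in young replicates 1 and 2 allows up to 0.0225 and 0.0155 CPM, at 3 counts of each total. No fold is given for these counts.

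Lin28b (chr10:45376620-45486395, minus strand) was detected in every population at a low level. The young populations had 0.307, 0.590 and 1.33 CPM, and the old populations had 2.54, 0.574 and 0.0383 CPM. The highest, old replicate 1, was 1.91-fold above young replicate 3, and the lowest, old replicate 3, rested on 7 UMIs. Young replicate 2 over old replicate 2 had a ratio of 1.03 with a counting interval of 0.779 to 1.35. The young and old values interleaved. The population that led for Igf2bp1 and Igf2bp3 was second for Lin28b.

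Hmga1 (chr17:27556497-27563674, plus strand) was the only member whose young and old values did not overlap. The young populations had 109, 96.0 and 134 CPM, and the old populations had 61.7, 50.2 and 59.8 CPM. Over all genes tested, 6.13% had no overlap between the groups, 0.903% with all old values below all young values. Old replicates 1 and 3 lay closest, at a ratio of 1.03 with an exact 95% counting interval of 1.00 to 1.06. Hmga1b, a near-identical copy on chromosome 11, shares sequence with Hmga1, so the split of reads between them is uncertain. It had 5.62, 2.46 and 3.35 CPM in young and 27.2, 0.884 and 1.19 CPM in old populations. In old replicate 1 it took 30.6% of the UMIs of both genes, against 1.73% to 4.89% elsewhere. The sum of both was 115, 98.4 and 137 CPM in young and 88.8, 51.0 and 60.9 CPM in old populations, again without overlap. AI413582 overlaps Hmga1 on the opposite strand, and whether the counting used strand is not given in the sources used here.

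Hmga2 (chr10:120361275-120476469, minus strand) was present in all populations and varied 5.65-fold. Its levels were 573, 240 and 689 CPM in young and 770, 136 and 202 CPM in old populations. The highest value was that of old replicate 1 and the next that of young replicate 3, so the groups overlapped. Old replicates 2 and 3 were the lowest. 1700006J14Rik, an antisense gene on the longer list only, overlaps Hmga2 and reached 5.33 CPM, in young replicate 3.

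**Figure D1:**
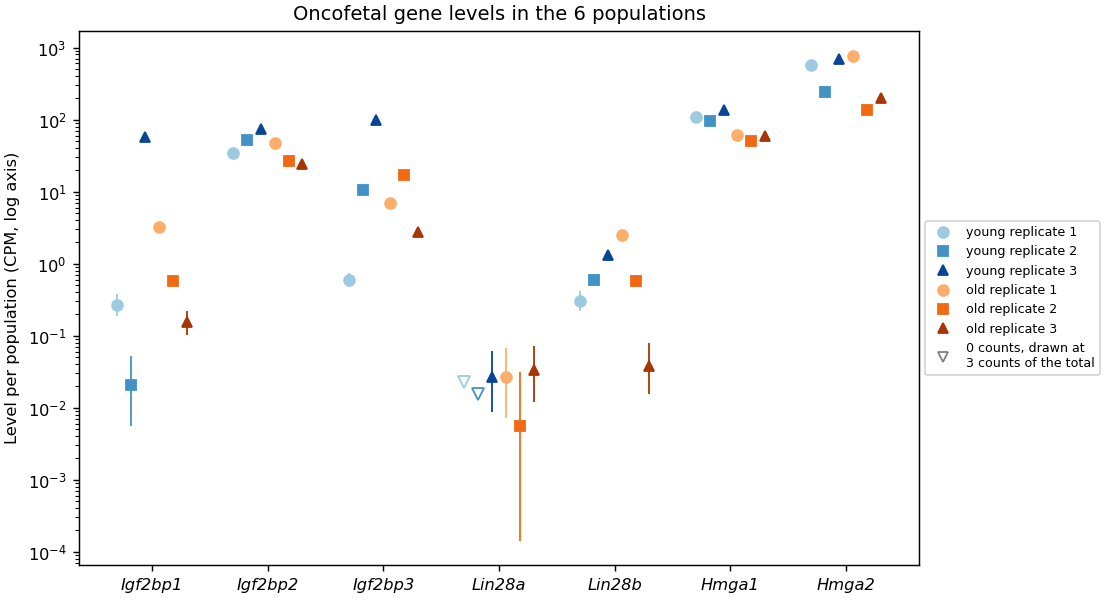
Level of each gene in each of the 6 populations in CPM on a log axis, with 95% exact Poisson intervals that cover counting error only; blue symbols are young and orange symbols old populations, and open triangles mark 0 counts, drawn at the level of 3 counts. Igf2bp1 and Igf2bp3 peak in young replicate 3 at 57.7 and 97.0 CPM, and only for Hmga1 do all young symbols lie above all old ones.

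Old populations were compared with young ones on counts summed per population, with edgeR's quasi-likelihood test and a term for the gene list. Of 15064 genes tested, 1 was called at an adjusted p under 0.05 (0.00664%), and 560 had an unadjusted p under 0.05. No member was called. Hmga1 was 1.06 lower in old on the log2 scale (log2 fold change -1.06, SE 0.23), with an unadjusted p of 0.00399 and an adjusted p of 0.992 in edgeR. The direction held in 15 of 15 alternatives, from -1.20 to -0.91, with adjusted p between 0.0138 and 1. The adjusted p of 0.0138 came from DESeq2, which called 263 of 15517 genes (1.69%). All alternatives used Hmga1 without Hmga1b, and the sum of both genes was not tested. For that sum the closest values of the groups were 88.8 CPM in old replicate 1 and 98.4 CPM in young replicate 2. Within the longer gene list alone the edgeR change of Hmga1 was -0.98. Without old replicate 1, the population with Eif2s3y UMIs, it was -0.98, but this is not a separate check. Young replicate 1 is then the only population on the shorter list, and the gene list term absorbs it. The fit so repeats the longer-list contrast, as does the one without young replicate 1 (-1.01). With 3 populations a group, no single-gene exact permutation test could go below 0.1.

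The other members gave less. Igf2bp2 had a log2 fold change of -0.80 (SE 0.34, unadjusted p = 0.0572, adjusted p = 1.00 in edgeR), and -1.24 without old replicate 1. Hmga2 had -0.89 (SE 0.52, unadjusted p = 0.137, adjusted p = 1.00), -0.26 without young replicate 3 and -1.35 without old replicate 1. As for Hmga1, the fits without old replicate 1 repeat the longer-list contrast, which gave -1.24 for Igf2bp2 and -1.35 for Hmga2. They also set young replicate 1 aside. Lin28b had -0.41 (SE 1.52, unadjusted p = 0.797), and values of -1.66 to 0.81 when 1 population was left out. The SE of Lin28b spans a several-fold change in either direction, so these data place no narrow bound on it. Fewer cells with a message and less of it per cell cannot be told apart in such sums.

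The other genes of the pathway were read from lists, and 0 members of any list were called in this comparison. Among 12 genes of let-7 processing and silencing, the lowest unadjusted p was that of Trim71, a let-7 target that encodes a ubiquitin ligase (log2 fold change -2.11, unadjusted p = 0.0281 in edgeR). Its levels of 1.92, 0.781 and 0.233 CPM in young and 0.575, 0.146 and 0.0876 CPM in old populations overlapped. Cdkn2b, which encodes the inhibitor p15 and belongs to the Hmga2-linked cell cycle list of 5 genes, had a log2 fold change of -1.97 (SE 0.25, unadjusted p = 0.000300, adjusted p = 0.347). It measured 96.1, 46.3 and 71.7 CPM in young and 30.8, 12.8 and 16.1 CPM in old populations, without overlap. Cdkn2a, which encodes p16 and p19ARF, measured 12.3, 12.7 and 7.30 CPM in young and 107, 32.5 and 500 CPM in old populations. Its values did not overlap either, and the log2 fold change was 4.17 (SE 1.19, unadjusted p = 0.0142 in edgeR). Over all genes tested, 6.13% had no overlap, 0.903% with old lower and 5.22% with old higher. The median log2 fold change over 19 other let-7 targets was -0.17, against -0.01 over all genes tested. A median below 0 was not particular to let-7 targets. It was -0.19 for let-7 processing, -0.17 for messages bound by Igf2bp proteins and -0.20 for their protein partners. Other HMG proteins had -0.10, other fetal-expressed genes -0.29 and the Hmga2-linked list 0.24.

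The genes whose pattern over the 6 populations was most like that of Igf2bp1 were found by the root mean square difference of centred log2(CPM + 1) among 14280 genes. Slc1a3, a glutamate transporter gene, came first with a difference of 0.40. It measured 0.741, 0.517 and 118 CPM in young and 3.16, 0.496 and 0.991 CPM in old populations. Foxa2, a transcription factor gene of endoderm, followed at 0.70 with 27.2 CPM in young replicate 3 and 9.16 CPM in old replicate 1. Rspo2 (0.76), a Wnt pathway agonist, Ces1g (0.77) and Galnt18 (0.80) completed the 5. Igf2bp3 ranked 62 for Igf2bp1, at 1.28. For Igf2bp3 the 5 were Ppp2r2b (0.72), Ptn (0.72), which encodes the growth factor pleiotrophin, Nedd9 (0.87), Pak3 (0.88) and Arxes1 (0.91). Igf2bp1 ranked 103 for Igf2bp3. With 6 populations, 1 of which is far from the rest, many genes can be alike by this measure.

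For the remaining members the nearest genes were Tnfaip8, Zfp609 and Frmd4a for Igf2bp2, Ifi203, Radil and Pik3cb for Lin28b, Gng2, Sept1 and Arl4a for Hmga1, and Gcat, Rasa2 and Uck2 for Hmga2. No member stood among another member's nearest genes.

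The rise in young replicate 3 was set beside the neighbouring genes on the chromosome, 5 on each side with a mean of 5 CPM or more. Igf2bp1 stood 5.37 above the median of the 6 populations in log2(CPM + 1), while its 10 neighbours spanned -0.12 to 0.45, with a median of 0.03. Snf8 and Zfp652, next to it on either side, were near 0. For Igf2bp3 the value was 3.35, and its 10 neighbours spanned 0.13 to 1.43, with a median of 0.54. Malsu1, at 0.17 among these neighbours, overlaps the 3′ end of Igf2bp3 on the opposite strand. The highest neighbour was Mpp6. Chromosome 6 as a whole was raised in young replicate 3, by a median of 0.41 over 385 genes, whereas chromosome 11 was at -0.07 there over 649 genes. The part of the chromosome 6 shift in the level of Igf2bp3 was not tested. Gm29202, an antisense gene within Igf2bp1 that is on the longer list only, had 92 UMIs in young replicate 3 and 0 in young replicate 2 and old replicates 2 and 3.

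**Figure D2:**
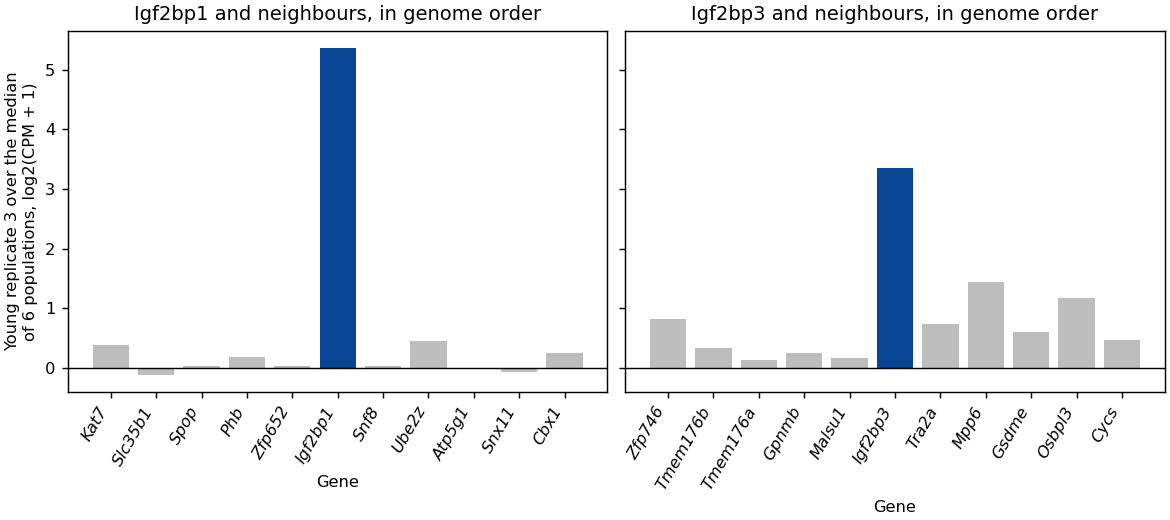
Level in young replicate 3 over the median of the 6 populations, in log2(CPM + 1), for Igf2bp1 (left) and Igf2bp3 (right) in blue and their 10 neighbours in grey, in genome order. Igf2bp1 rises by 5.37 among neighbours that lie between -0.12 and 0.45, while the neighbours of Igf2bp3 lie between 0.13 and 1.43.

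At the level of cells, each cell was thinned at random to 5000 UMIs so that depth did not set the share of cells with a UMI, and 1348 shallower cells were left out. Igf2bp1 was seen in 24.4% of the cells of young replicate 3 (Wilson interval 23.6% to 25.2%) and Igf2bp3 in 37.1% (36.2% to 38.0%). Without thinning these shares were 57.3% and 74.2%. An even spread of the same UMIs over all cells of that population would have given 24.9% and 38.2%, close to what was seen. In the other populations Igf2bp1 reached at most 1.68% of cells, and Igf2bp3 0.414% to 8.02%. No cell type known to lack these genes was present, so the share that free RNA gives within young replicate 3 was not measured.

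Igf2bp2 was seen in 11.8% to 28.7% of cells, where an even spread would have given 11.9% to 29.9%. Lin28b was seen in 0.0246% to 1.29% of cells, and Lin28a in at most 4 cells of a population. Hmga1 was seen in 40.8%, 34.6% and 45.1% of young and 25.8%, 18.3% and 20.7% of old cells, without overlap between the groups. These shares leave out Hmga1b, which took 30.6% of the UMIs of both genes in old replicate 1. The share of cells with either gene was not computed, so the gap may be smaller. By CPM, 6.13% of all genes tested had no overlap, and no such background was computed for shares of cells. An even spread of Hmga1 would have given 41.3%, 36.6% and 46.3% in young and 26.3%, 19.7% and 22.7% in old populations. Hmga2 departed from an even spread by more percentage points, a gap that also depends on the level of a gene. It was seen in 86.8%, 56.6% and 91.4% of young and 91.5%, 38.4% and 49.0% of old cells, where an even spread would have given 94.5%, 68.5% and 96.4%, and 97.7%, 48.2% and 61.2%. In old replicate 1 a single thinned cell held 88 Hmga2 UMIs.

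Co-detection in the same cell was compared with the number expected if 2 genes were independent within a population. In young replicate 3, 1018 of 10633 cells had both Igf2bp1 and Igf2bp3, against 962 expected, a ratio of 1.06. A gene seen in most cells limits the ratio from above, and with Hmga2 it could not pass 1.09 to 1.15 in young replicates 1 and 3 and old replicate 1. Where that ceiling was higher, Hmga1 with Hmga2 had ratios of 1.09 in young replicate 2, 1.26 in old replicate 2 and 1.32 in old replicate 3. Igf2bp2 with Hmga2 had 1.09, 1.15 and 1.16 in the same 3 populations. By comparison, the cell cycle genes Mki67 and Top2a gave 1.33 to 3.13. At least 3 of the 7 members were found in 39.6% of the thinned cells of young replicate 3, and in 1.94% to 7.09% of those of the other populations. This count includes Igf2bp1 and Igf2bp3, whose levels in young replicate 3 prompted the list. No share expected under independence was computed for it, so it is not a measure of co-detection.

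Old replicate 1 differed from young replicate 3, the only other population in which pairs with Igf2bp1 or Lin28b were counted. A pair was counted only where each gene was seen in at least 50 thinned cells. Igf2bp1 and Igf2bp3 were found together in 22 cells against 5.50 expected (ratio 4.00). Igf2bp1 and Lin28b shared 10 cells against 2.14 expected (4.66), and Igf2bp3 and Lin28b shared 14 against 4.24 (3.30). Igf2bp1 and Igf2bp2 shared 50 against 32.1 (1.56). Still, 22 of 166 cells with Igf2bp1 had Igf2bp3, so most cells with Igf2bp1 had no Igf2bp3 UMI at this depth. Igf2bp1 had a ratio of 0.93 with Hmga1 there.

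**Figure D3:**
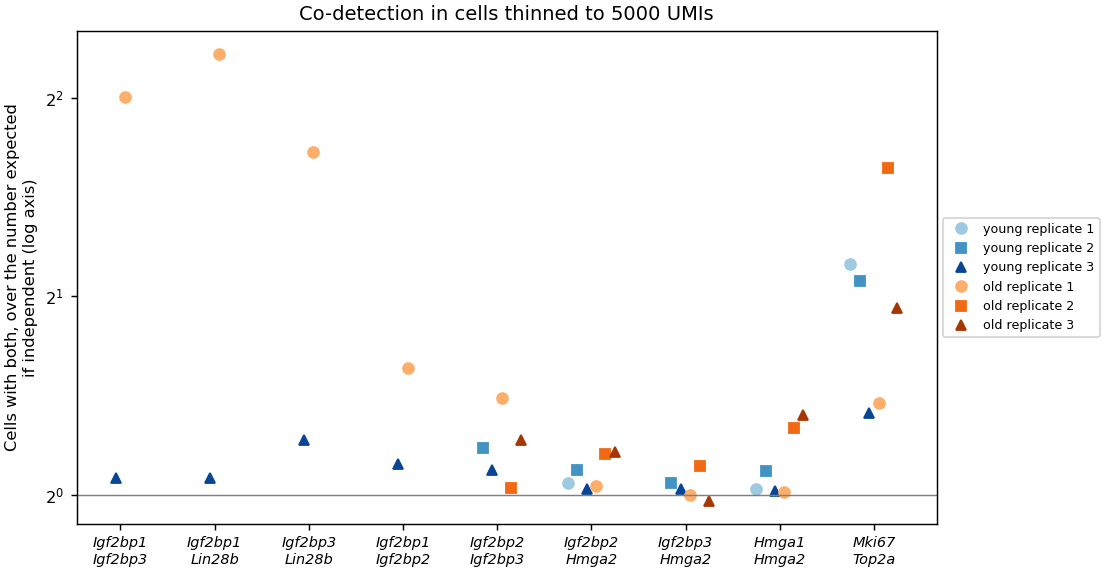
Number of cells with both genes of a pair, divided by the number expected if the genes were independent within the population. The axis is logarithmic, and cells were thinned to 5000 UMIs. Each symbol is 1 population, drawn where at least 2 cells were expected and each gene was seen in at least 50 cells. Pairs of Igf2bp1, Igf2bp3 and Lin28b stand at 3.30 to 4.66 in old replicate 1, while Igf2bp1 with Igf2bp3 in young replicate 3 is at 1.06.

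In old replicate 1, 46 of 9906 cells had at least 2 of Igf2bp1, Igf2bp3 and Lin28b, against 11.7 expected from the 3 shares. These cells were singled out after the co-detection values were seen, and what follows is a description of 1 population with no test. Their median of 14463 UMIs was near the 13638 of the whole population, and 76.1% were in S or G2/M phase by score, against 70.7%, while the proliferation gene Mki67 was at 65.8 CPM (48.2 to 87.8) against 110 in the other cells. They held 10.9% of the Igf2bp1 UMIs of the population. Igf2bp1, Igf2bp3 and Lin28b, which chose the cells, measured 77.3, 93.0 and 54.4 CPM in them. Of genes the choice did not use, Igf2bp2 was at 78.7 CPM (59.3 to 102) against 47.6 in the other cells. Hmga2 was at 996 CPM (923 to 1073) against 769. Hmga1 was at 68.7 CPM (50.6 to 91.1), an interval that includes the 61.5 CPM of the other cells. The higher Igf2bp2 and Hmga2 were not particular to old replicate 1. The same choice in young replicate 3 had Igf2bp2 at 88.1 CPM (83.9 to 92.5) against 71.6. Hmga2 was at 797 CPM (784 to 810) against 677 there, and Hmga1 at 127 CPM (121 to 132) against 135.

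Genes were ranked by ratio among those with 20 or more UMIs in the 46 cells, a floor that a low gene passes only where it is high in them. The first other than the members was Nr1h5, a nuclear receptor gene, at 37.2 CPM (26 UMIs, exact interval 24.3 to 54.5) against 2.21. Col1a2, a fibrillar collagen gene, was at 226 CPM (192 to 264) against 21.0. Sdk1 followed at 32.9 CPM against 3.15, and then Wfdc2, an epithelial secreted-protein gene, at 71.5 against 8.34. Eda, Klhl1, Lmo1, Wnt7b and Asb4 came next in rank, and after them Cd24a at 361 against 67.7. Of 5016 genes compared, 23 besides the members stood above 4-fold in the 46 cells, and 235 above 2-fold. Genes low in the other cells entered only when raised, which adds to both counts. No random choice of 46 cells was made, so these counts have no background. The Y-linked Eif2s3y was at 74.4 CPM against 17.6. Of genes above 100 CPM in the other cells, the lowest in ratio were Prrx2, a mesenchymal homeobox gene, at 7.15 CPM against 113, Aldh3a1 at 24.3 against 208 and Fez2 at 30.1 against 214. The same choice in young replicate 3 took 1043 of 10633 cells against 987 expected. Of 11102 genes compared there, 1 besides the members stood above 4-fold and 11 above 2-fold. With more cells the same floor lies at a lower level, so the 2 sets of counts are not alike.

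Cells scored in S or G2/M phase were compared with the other cells of the same population, on 12 sums with the population as a block. They made up 55.1%, 62.5% and 77.5% of young and 70.7%, 33.5% and 57.6% of old cells. Of 14697 genes tested with edgeR, 44.9% were called, 20.2% higher and 24.7% lower. Of the 6 members tested, Hmga1 rose and no other was called. Hmga1 measured 112, 109 and 137 CPM in cycling and 106, 69.9 and 120 CPM in the other cells of the young populations. In the old populations it measured 61.8, 69.4 and 67.6 CPM in cycling and 60.7, 39.2 and 46.8 CPM in the other cells. The rise was in 6 of 6 populations, but the ratios in young and old replicates 1, the 2 populations on the shorter gene list, were 1.05 and 1.02. The fitted log2 change was 0.38 (SE 0.11, adjusted p = 0.0195 in edgeR), and without old replicate 3 the adjusted p was 0.0676.

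Hmga2 had a log2 change of 0.16 (adjusted p = 0.184 in edgeR), with ratios of 0.909 to 1.52. The ratios of Igf2bp2 spanned 0.905 to 1.11 and those of Igf2bp3 0.757 to 1.14. In young replicate 3, Igf2bp3 was at 97.2 CPM in cycling and 96.0 CPM in other cells. The high level of Igf2bp3 there was as large in cells scored outside S and G2/M as in cells within. The 2 classes were less distinct by Mki67 in that population. Phase was scored within each population, and the part of this scoring in the weaker separation was not tested. Mki67 was at 16.8 CPM in the other cells of young replicate 3 and 21.0 CPM in those of old replicate 1. Elsewhere the other cells had 2.90 to 4.47 CPM of Mki67.

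Among other HMG proteins, which also bind chromatin, 6 of 8 tested rose in cycling cells and 0 fell. Hmgb3 rose by a log2 change of 1.36, Hmgn2 by 1.25, Hmgb1 by 0.83 and Hmgn5 by 0.57, with edgeR adjusted p of 0.000325, 0.00586, 0.00126 and 0.000671. Of 8 protein partners of the Igf2bp proteins, 7 rose and 1 fell, with Hnrnpu at 0.43. In the list of let-7 processing, 7 of 12 rose and 1 fell, with Dgcr8, a subunit of the microprocessor, at 0.62. The medians of these 3 lists were 0.50, 0.22 and 0.20, against -0.04 over all genes tested. Of 19 other let-7 targets 6 rose and 2 fell, among them Cdc25a, a cell cycle phosphatase, at 0.89. Of 11 messages bound by Igf2bp proteins 2 rose and 2 fell. The medians of these lists were 0.097 and 0.058, nearer to that of all genes. Other fetal-expressed genes had a median of 0.064 and the Hmga2-linked cell cycle genes -0.11. All these counts are read against the 20.2% of all genes that rose and the 24.7% that fell.

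Myog encodes myogenin, the transcription factor that marks myoblasts entering differentiation. Cells with a Myog UMI after thinning made up 3.59%, 21.1% and 5.22% of young and 0.666%, 14.6% and 46.4% of old cells. They were compared with the other cells of the same population in the same way. Of 14873 genes tested with edgeR, 34.1% were called, 14.1% higher and 20% lower. Both Hmga genes fell, and no Igf2bp or Lin28 gene was called.

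Hmga2 measured 287, 132 and 526 CPM in Myog-positive cells and 580, 267 and 697 CPM in the other cells of the young populations. In the old populations it measured 331, 45.4 and 107 CPM in Myog-positive and 772, 152 and 285 CPM in other cells. It was lower in 6 of 6 populations, with ratios of 0.299 to 0.754. The fitted log2 change was -1.12 (SE 0.14, adjusted p = 0.00128 in edgeR). Young replicate 3 had the smallest fall.

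Hmga1 measured 50.7, 57.1 and 104 CPM in Myog-positive and 111, 106 and 135 CPM in other cells of the young populations. In the old populations it measured 36.0, 21.6 and 33.6 CPM in Myog-positive and 61.7, 54.9 and 82.8 CPM in other cells. It was also lower in 6 of 6, with ratios of 0.393 to 0.767 and a fitted log2 change of -0.96 (SE 0.11, adjusted p = 0.000589 in edgeR). The proliferation gene Mki67 moved with this class, with ratios of 0.231 to 1.03, and its part in the fall of either Hmga gene was not tested. In young replicate 3 Hmga1 again had its smallest fall, and there Mki67 was at 83.8 CPM in Myog-positive and 81.4 CPM in other cells. In old replicate 1 the Mki67 ratio was 0.858, while those of Hmga2 and Hmga1 were 0.428 and 0.584. In young replicate 1 the 3 ratios were 0.422, 0.495 and 0.456.

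Igf2bp2 measured 28.0, 44.0 and 73.4 CPM in Myog-positive and 34.2, 54.2 and 73.2 CPM in other young cells. In old cells it measured 42.6, 24.7 and 22.4 CPM in Myog-positive and 47.8, 27.0 and 25.3 CPM in others. The fitted log2 change was -0.15 (adjusted p = 0.0994 in edgeR), and with 2 or more Myog UMIs required it was -0.28 (adjusted p = 0.0497). Igf2bp3 had -0.16 (adjusted p = 0.255), with 91.2 CPM in Myog-positive and 97.3 CPM in other cells of young replicate 3. In the same population Hmga2 and Hmga1 had ratios of 0.754 and 0.767. Lin28b had -0.35 (adjusted p = 0.359) and Igf2bp1 -0.33 (adjusted p = 0.727), each with ratios from only 3 populations that held enough UMIs.

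**Figure D4:**
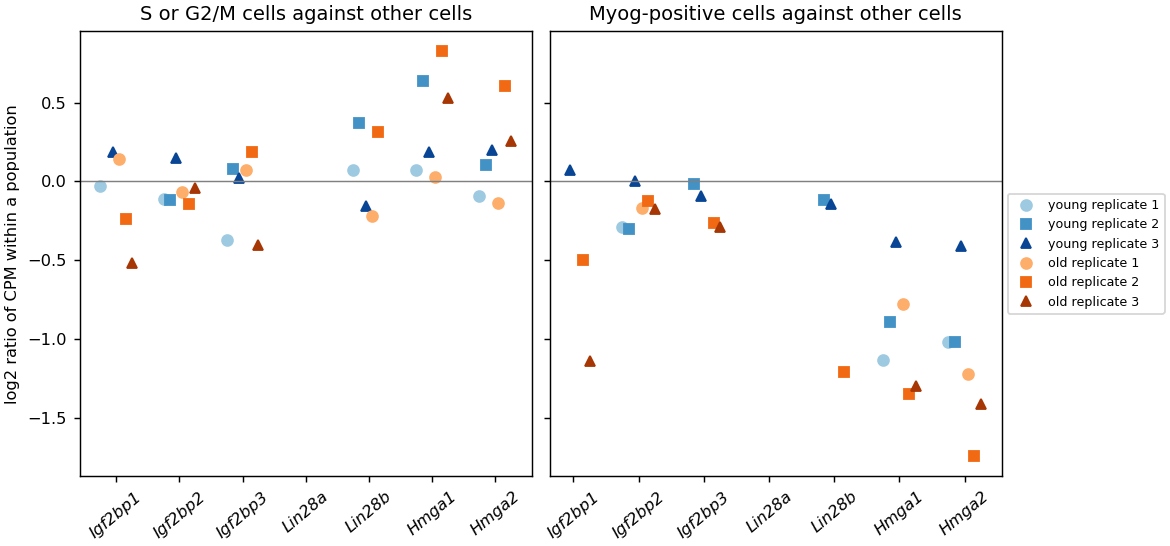
log2 ratio of CPM between cells in S or G2/M and other cells (left), and between Myog-positive and other cells (right), within each of the 6 populations; each symbol is 1 population, and Lin28a and populations with too few UMIs are not drawn. Hmga1 and Hmga2 lie below 0 in all 6 populations on the right, with Hmga2 at ratios of 0.299 to 0.754, while the ratios of Igf2bp2 span 0.812 to 1.00 and those of Igf2bp3 0.820 to 0.989.

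A test of whether these within-population differences themselves differed between old and young called 0 of 14697 genes for the cycling class and 0 of 14873 for the Myog class in edgeR. For Hmga2 the fall in Myog-positive cells was larger in old populations by 0.60 on the log2 scale (log2 difference -0.60, SE 0.18, unadjusted p = 0.00753, adjusted p = 1). It was 0.34 for Hmga1 (log2 difference -0.34, unadjusted p = 0.124, adjusted p = 1).

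In Myog-positive cells the related lists are read against the 20% of all genes that fell and the 14.1% that rose. Of 9 other HMG proteins 6 fell and 0 rose, with Hmgb2 at a log2 change of -0.77 and Hmgb3 at -0.50. Of 19 other let-7 targets 9 fell and 1 rose. Myc and Ccnd1, which promote cell growth and division, were each at -0.88 (edgeR adjusted p = 0.000355 and 0.000411), and E2f2 rose by 1.16. Of 11 messages bound by Igf2bp proteins 5 fell, Cd44 among them at -0.59, and 1 rose. The one that rose was Igf2 at 2.63 (SE 0.55, adjusted p = 0.0163), the fetal growth factor for which the family is named. Of 9 other fetal-expressed genes 2 rose, Igf2 again among them, and 2 fell, with a median log2 change of 0.23. The lists share genes, since Myc, Nras and Igf1r are both let-7 targets and messages bound by Igf2bp proteins here. Igf2 measured 0.344, 0.0517 and 85.3 CPM in young and 0.00661, 15.7 and 76.7 CPM in old populations. Its level was highest in young replicate 3, where Igf2bp1 and Igf2bp3 were highest, but was nearly as high in old replicate 3, where both were low. The median log2 changes of the HMG, let-7 target and client lists were -0.38, -0.21 and -0.19, against -0.08 over all genes tested.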

How the data were processed

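The authors deposited raw UMI counts per gene and barcode for 6 populations, whole numbers without normalization, made with Cell Ranger 7.0.0 (young and old replicate 1) or 7.2.0, per the file headers. The submitters' processing notes name Cell Ranger 7.2.0, Seurat 5.134 and mm10. The treatment of intronic reads and of strand is not given in the sources used here. The gene lists held 21849 and 32285 features, and the 21485 shared identifiers were used.

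The members and lists were chosen with earlier results of these data known. A barcode counted as a cell from 1000 UMIs and 500 genes upwards, with under 15% mitochondrial UMIs. No doublet caller was run, and leaving out the 8% of cells with the highest totals was an alternative. Phases came from scanpy 1.11.5 with 43 S and 54 G2/M genes. CPM are counts per 1000000 UMIs of shared genes, without TMM factors. Raw counts of kept cells were summed per population, or per population and class, and tested in R 4.3.3 with edgeR 4.0.16 (filterByExpr, TMM, robust quasi-likelihood, two-sided, Benjamini-Hochberg at 0.05 over all genes tested). DESeq2 1.42.0 was an alternative. Class sums used cells thinned to 5000 UMIs only to assign the class. The phase genes were left out of the cycling test and Myog out of the Myog test. Scripts were tested on simulated data.

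All 7 members were named. From each list, up to 4 genes past the threshold with the largest change, or the 2 with the lowest p, could be named. For likeness, 5 genes were taken for Igf2bp1 and Igf2bp3 and 3 for the other members with 100 or more counts. Nothing says that the populations came from separate animals, so p-values measure the spread between these samples. Intervals are 95% and, like the floor of 3 counts, cover counting error only.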

Additional observations from a re-analysis of the deposited data

Results flagged for a closer look

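A set of 4 noncoding genes that hold let-7 hairpins is on the longer gene list only and entered no comparison. Their counts stood above the limit that a count of 0 allows in all 4 populations counted on that list, given here for young replicates 2 and 3 and then old replicates 2 and 3. 3110039I08Rik, which holds the let-7a-2 hairpin, had 15310, 42571, 18144 and 18188 UMIs. The count in young replicate 3, where Igf2bp1 and Igf2bp3 were highest, was the largest of the 4. 6720427I07Rik, which holds the let-7a-1, let-7f-1 and let-7d hairpins, had 2994, 3081, 1776 and 1875 UMIs. Lncppara, which holds let-7b and let-7c-2, had 6198, 6131, 3771 and 3357 UMIs. Mir99ahg, which holds let-7c-1, had 14575, 12348, 10723 and 10998 UMIs. A host transcript is not the mature miRNA, whose level was not measured.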

How the results depend on the processing

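The count of genes called between old and young was 1 and became 263 with DESeq2, and 0 without the gene list term, on the longer list only and, in an alternative chosen after seeing the data, in non-cycling cells only. Leaving out 1 population gave 0 to 3 calls. With the replicate block it was 1, and the same-number correlations of 0.38, 0.22 and -0.08 do not show that the numbers pair the populations. Old replicate 3 correlated best with young replicate 2. The log2 change of Lin28b between old and young (-0.41) reversed to 0.40 without the gene list term, 0.34 without young replicate 3 and 0.81 without old replicate 3, and spanned -1.66 to 0.81 with 1 population left out. In cycling cells, Igf2bp1 (0.069) reversed without young replicate 3 and spanned -0.081 to 0.14. Igf2bp3 (-0.0075) reversed to 0.0035 with no filter, 0.010 without young replicate 1 and 0.068 without old replicate 3, and spanned -0.050 to 0.068. Lin28b (0.021) reversed to -0.041 without young replicate 2 and -0.042 without old replicate 2, and spanned -0.042 to 0.10. The cause of these changes was not tested. The falls of Hmga1 and Hmga2 in Myog-positive cells stayed called in 9 of 9 alternatives each. All 42 CPM levels moved by less than the spread between populations with all barcodes, and 29 of 42 shares of cells moved by more without thinning. Depth limits Lin28a throughout, and Igf2bp1 outside young replicate 3.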
